A study of Mus musculus with 6 samples.

Results

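The 35 adipocyte genes described here encode proteins with which fat cells take up, store and release lipid, and hormones they secrete. They were taken as listed, and 33 of the 35 were measured by a probe set with a single gene symbol, out of 19938 genes in all. Acsl1 and Adrb3 are not analysed here. Fabp5 alone had 2 such probe sets, and the brighter one was used. Levels are given as the deposited log2 intensities, and differences as log2 units, relapsed minus control.

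Expression was measured with Affymetrix arrays on 3 relapsed gliomas, numbered 1, 2 and 3, and 3 control gliomas, numbered 1, 2 and 4. All grew from mouse glioma cells whose growth a mutant form of EGFR, the epidermal growth factor receptor, had driven, and which had been placed beneath the skin of the flank in Nu/Nu mice, an athymic strain that lacks mature T cells. The relapsed tumours are those that grew back after the mutant receptor was extinguished. Doxycycline was given in the drinking water to some mice, and the labels do not say to which group. Tumours were collected when they reached a set size. The labels do not say how old the mice were, where the glioma cells came from, which form the receptor had, or whether the numbered tumours came from separate animals, so the p-values measure only the spread between these samples, which may be technical. The design compares tumours that regrew without the driving receptor with control gliomas, and the adipocyte genes were also read on each array singly.

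White fat cells hold triglyceride in a single large droplet coated by perilipins and CIDE proteins. They take up fatty acids released by lipoprotein lipase, esterify them on a glycerol 3-phosphate backbone, and release them again through a chain of lipases. The nuclear receptor PPAR gamma and the transcription factor C/EBP alpha drive their differentiation and many of these genes. A layer of fat lies under mouse skin, where these tumours were placed. Several of the listed genes are not restricted to fat: macrophages, endothelium, muscle and glial cells also make some of the lipid-handling proteins.

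The promoters below belong to the 5 adipocyte genes that, of those matched to a promoter window, stood furthest above the other arrays in a single relapsed tumour. They show the bases in front of the start sites, and whether the factors of fat cell differentiation bind there was not tested. Each is the 250 bases before the annotated start, from RefSeq on GRCm38.p6, written 5′ to 3′ on the gene's strand. Capitals mark matches, on either strand, to a C/EBP motif (TTGCNNAA), a PPAR half-site (AGGTCA) or a TATA box (TATAAA).
Adipoq, chr16:23146286-23146535, plus strand: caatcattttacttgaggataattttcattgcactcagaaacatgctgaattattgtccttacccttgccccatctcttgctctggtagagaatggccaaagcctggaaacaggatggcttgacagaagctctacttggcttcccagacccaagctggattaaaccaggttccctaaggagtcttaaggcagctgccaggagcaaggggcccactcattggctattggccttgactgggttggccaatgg
Retn, chr8:3655520-3655769, plus strand: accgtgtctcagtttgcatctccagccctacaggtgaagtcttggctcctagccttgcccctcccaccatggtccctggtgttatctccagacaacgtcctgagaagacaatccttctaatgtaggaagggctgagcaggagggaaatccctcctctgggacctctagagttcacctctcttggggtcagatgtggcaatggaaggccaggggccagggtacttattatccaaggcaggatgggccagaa
Cidec, upstream start, chr6:113435761-113436010, minus strand: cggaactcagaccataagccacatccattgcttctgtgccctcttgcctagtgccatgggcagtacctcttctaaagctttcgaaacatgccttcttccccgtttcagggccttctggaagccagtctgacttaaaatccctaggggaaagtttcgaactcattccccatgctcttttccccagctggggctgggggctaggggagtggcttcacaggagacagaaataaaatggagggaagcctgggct
Cidec, downstream start, chr6:113434765-113435014, minus strand: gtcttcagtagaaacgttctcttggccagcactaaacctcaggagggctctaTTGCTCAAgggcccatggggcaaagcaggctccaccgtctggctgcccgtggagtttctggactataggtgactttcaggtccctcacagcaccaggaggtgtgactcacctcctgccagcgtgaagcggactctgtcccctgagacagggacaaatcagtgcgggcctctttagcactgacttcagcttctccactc
Plin1, chr7:79732777-79733026, minus strand: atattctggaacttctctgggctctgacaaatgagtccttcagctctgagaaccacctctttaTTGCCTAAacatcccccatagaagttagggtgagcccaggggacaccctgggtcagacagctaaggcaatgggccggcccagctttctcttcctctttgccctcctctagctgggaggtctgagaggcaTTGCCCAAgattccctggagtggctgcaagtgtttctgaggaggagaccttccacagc
Thrsp, chr7:97417551-97417800, minus strand: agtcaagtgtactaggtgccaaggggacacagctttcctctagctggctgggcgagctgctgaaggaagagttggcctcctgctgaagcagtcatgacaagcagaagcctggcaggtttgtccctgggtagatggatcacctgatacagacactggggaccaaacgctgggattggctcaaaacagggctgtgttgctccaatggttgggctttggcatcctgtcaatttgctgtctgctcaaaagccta
Windows were found for 23 of the 33 measured genes, 31 windows in all. None is shown for Fabp4, Car3 and Lpl, which also stood far above the other arrays there. Such windows of adipocyte genes held the C/EBP motif in 5 of 31 cases (16.1%), against 9.56% of all 32851 windows. The PPAR half-site was found in 8 of 31 (25.8%), against 14.0% of all windows, and the TATA box in 3 of 31 (9.68%), against 12.4%. The motifs were counted wherever they occurred, overlaps included, and windows of the same gene can overlap. These matches describe the letters only. No match was found in the windows of Adipoq, Retn and Thrsp or at the upstream start of Cidec.

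The oligodendrocyte lineage factor Olig2, which many gliomas express, stood at 7.69, 7.71 and 6.48 in relapsed 1, 2 and 3, against 10.54, 11.42 and 10.55 in control 1, 2 and 4. Some arrays stood apart from the rest in genes of other tissues, relapsed 1 in those of fat, relapsed 3 in those of keratinocytes and control 2 in those of skeletal muscle. Probe sets not listed with a gene had a median of 5.66, which is used here as a mark of dim signal.

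Many adipocyte genes were far higher on relapsed 1 than on any other array. Of the 33 genes, 17 stood more than 1 log2 unit (2-fold) above each of the other 5 arrays on relapsed 1, against 0.978% of all genes. No adipocyte gene did so on relapsed 2, relapsed 3, control 1, control 2 or control 4, where 0.13%, 0.557%, 0.0702%, 0.266% and 0.0502% of all genes did. Relapsed 1 was the highest of the 6 arrays for 25 of the 33 genes, against 16.4% of all genes. When all 19938 genes were ranked by how far relapsed 1 exceeded the highest of the others, 4 of the first 5 and 11 of the first 50 were adipocyte genes. These counts describe 1 array and have no replicate check. In tumour tissue measured in bulk, more fat cells and more of these transcripts per cell cannot be told apart.

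**Figure D1:**
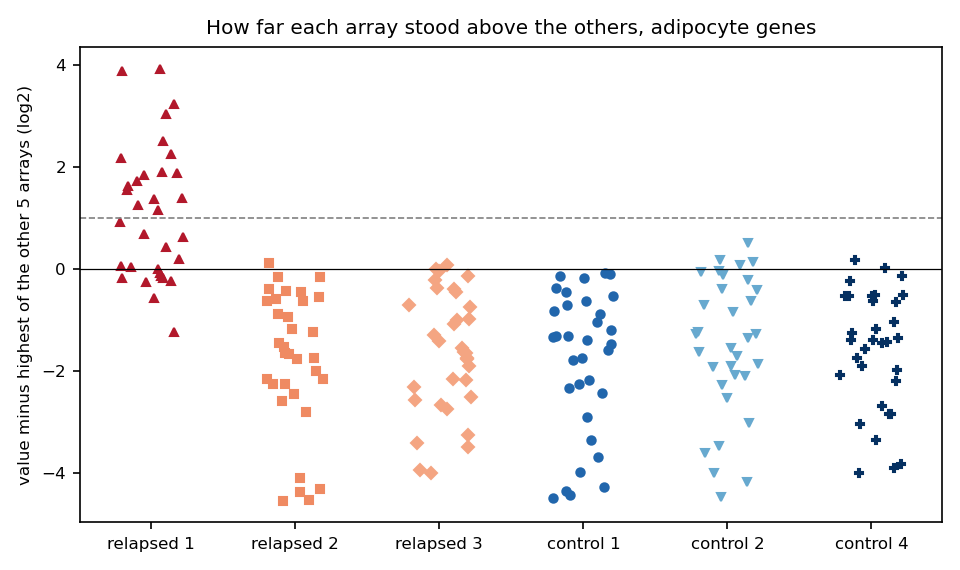
Each point is 1 of the 33 adipocyte genes on 1 array, placed by its log2 value minus the highest of the other 5 arrays. Points above the solid line are genes for which that array was the highest, and the dashed line marks 1 log2 unit. On relapsed 1, 17 genes lie above the dashed line, and on the other 5 arrays none does.

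The median difference between the groups, and how many adipocyte genes were higher or lower, depended on that array. By limma with Benjamini-Hochberg adjustment over all genes, 2 of the 33 adipocyte genes rose in relapsed tumours (3.69% of all genes rose) and 1 fell (5.47% of all genes fell). The genes that rose were Cav1 and Cav2, which encode caveolins, and the gene that fell was Gpd1, glycerol 3-phosphate dehydrogenase. By mean, 27 of the 33 were higher and 6 lower in relapsed tumours, and the median difference was 0.54, against -0.019 over all genes. Without relapsed 1, 13 were higher and 20 lower in relapsed 2 and 3 than in control tumours, and the median difference was -0.028, against -0.011 over all genes. In that fit Cav1 rose (1.91% of all genes rose), and Gpd1, Dgat2 and Dgat1 fell (2.98% of all genes fell). Relapsed 1 was set aside with its high values known.

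Adipoq, Retn and Lep encode adiponectin, resistin and leptin, hormones that in mice come chiefly from fat cells. Adipoq stood at 9.81, 5.29 and 5.88 in relapsed 1, 2 and 3, against 5.54, 5.64 and 5.82 in control 1, 2 and 4. Retn stood at 10.63, 6.09 and 6.65 in the relapsed tumours, against 6.28, 6.64 and 6.74 in the controls. For both genes relapsed 1 was alone, 3.94 and 3.89 log2 units (15.3-fold and 14.8-fold) above the highest of the other arrays, and relapsed 2 and 3 lay within or below the range of the controls except for relapsed 3 in Adipoq, which lay just above it. Lep stood at 6.69, 4.93 and 4.96 in relapsed tumours and at 4.96, 4.80 and 4.96 in control tumours. Relapsed 1 was thus the single array on which leptin exceeded the level of dim probe sets. The group differences were 1.32 ± 1.21 for Adipoq, 1.24 ± 1.22 for Retn and 0.62 ± 0.50 for Lep (SE, 3 arrays per group), with adjusted p of 0.550, 0.582 and 0.497 in limma. Without relapsed 1 they were -0.089 ± 0.21, -0.18 ± 0.23 and 0.038 ± 0.073, with 95% intervals of -0.65 to 0.47, -0.81 to 0.45 and -0.16 to 0.24.

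Of the lipid droplet genes, those typical of white fat cells followed the same pattern. Plin1, the perilipin that coats the fat cell's droplet and guards it from lipases, stood at 8.87, 6.42 and 6.56 in relapsed 1, 2 and 3, against 6.44, 6.59 and 6.69 in control 1, 2 and 4. Plin4, a perilipin of fat and muscle, stood at 8.80, 6.66 and 6.62 in relapsed tumours, against 6.47, 6.74 and 6.90 in controls. Cidec, which enlarges droplets by fusing them, stood at 10.19, 6.10 and 6.71 in relapsed tumours, against 6.22, 6.72 and 7.15 in controls. Relapsed 1 was 4.53-fold, 3.73-fold and 8.23-fold above the highest of the other arrays for these 3 genes, and the other 2 relapsed tumours overlapped with the controls or lay below them. Plin2, the perilipin of most cell types that hold droplets, did not follow: it stood at 11.23, 11.31 and 11.45 in relapsed tumours and at 11.35, 11.23 and 10.93 in controls. Its groups overlapped, with a difference of 0.16 ± 0.13 and an adjusted p of 0.505 in limma. Cidea, the relative of Cidec that marks brown fat, was dim on all 6 arrays, at 4.96, 4.55 and 4.96 in relapsed tumours and 4.34, 4.56 and 4.46 in controls.

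**Figure D2:**
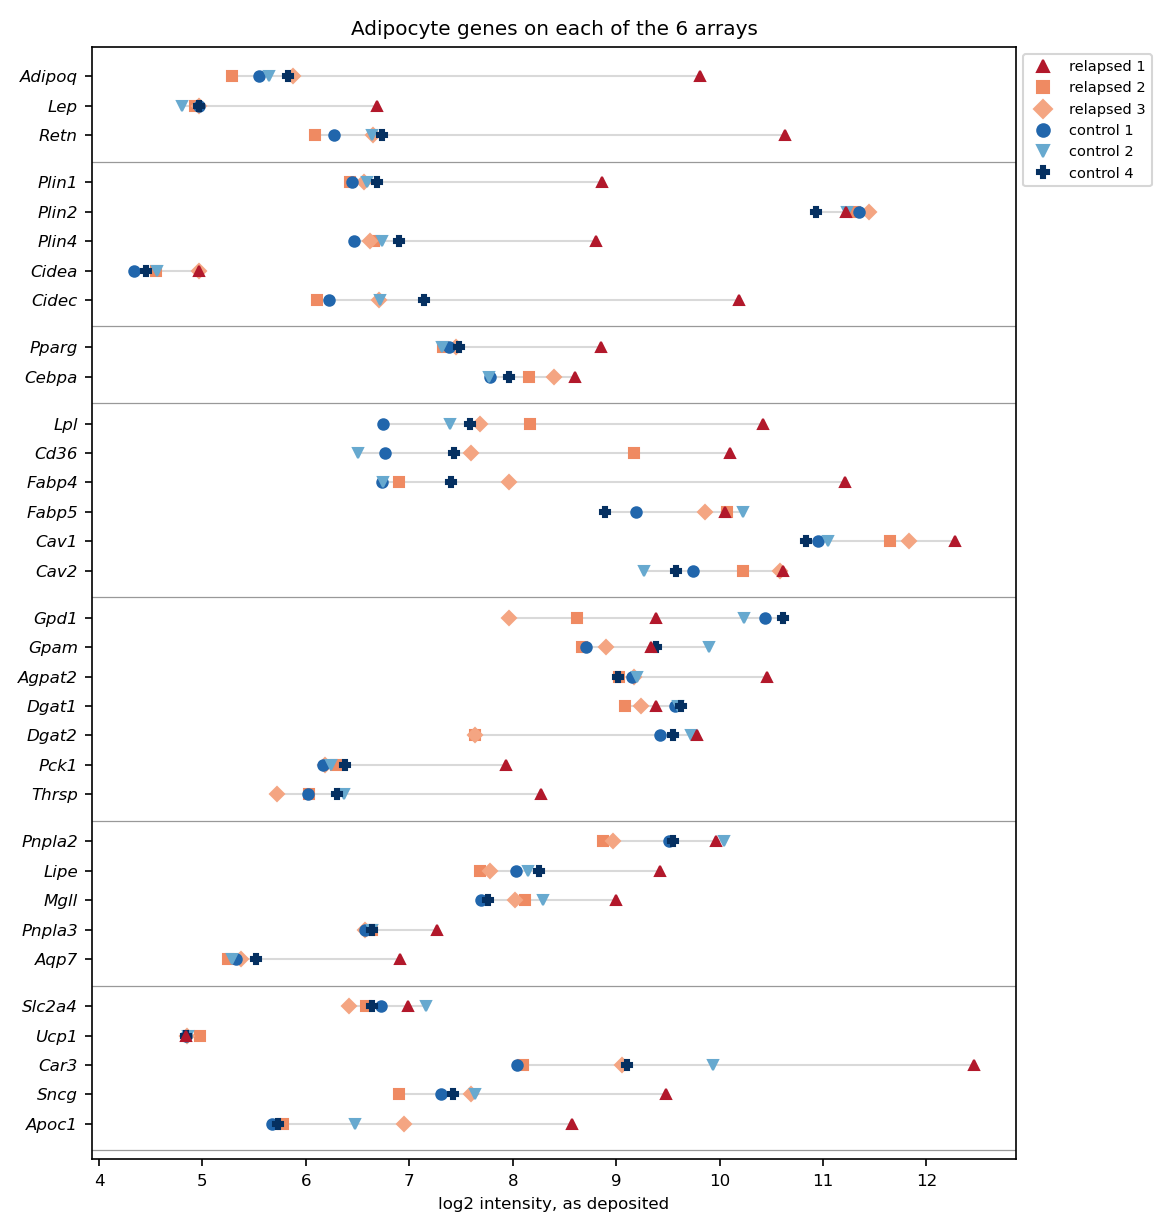
The deposited log2 intensity of each of the 33 adipocyte genes is shown on each of the 6 arrays, grouped by role from secreted adipokines at the top to glucose uptake, thermogenesis and other genes at the bottom. The dark red triangle of relapsed 1 stands alone to the right for genes such as Adipoq, Retn, Cidec and Fabp4, while for Dgat2 relapsed 2 and 3 stand alone to the left, at 7.64 and 7.63.

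The 2 transcription factors differed from each other. Pparg, which encodes PPAR gamma, stood at 8.86, 7.33 and 7.45 in relapsed 1, 2 and 3, against 7.39, 7.32 and 7.48 in control 1, 2 and 4. It was 2.60-fold above every other array on relapsed 1, and the remaining 5 arrays lay within 7.32 to 7.48. Cebpa, which encodes C/EBP alpha and is also made by myeloid cells, stood at 8.60, 8.16 and 8.39 in relapsed tumours, against 7.78, 7.77 and 7.96 in controls. All 3 relapsed tumours lay above all 3 controls, as they did for 5 adipocyte genes and 13.0% of all genes. The difference of 0.55 ± 0.13 did not pass in limma, with an adjusted p of 0.0613. It was 0.44 ± 0.11 without relapsed 1, with an adjusted p of 0.0995, and passed with quantile normalization (0.0463) and with the dimmer genes left out (0.0407).

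Genes for the uptake and binding of fatty acids had 2 patterns. Fabp4, the fatty acid-binding protein of fat cells and macrophages, stood at 11.22, 6.90 and 7.97 in relapsed 1, 2 and 3, against 6.73, 6.75 and 7.40 in control 1, 2 and 4. Lpl, lipoprotein lipase, stood at 10.42, 8.17 and 7.69 in relapsed tumours, against 6.75, 7.40 and 7.59 in controls. Both were highest on relapsed 1, by 9.49-fold and 4.77-fold over the highest of the others. Lpl also lay above all controls in relapsed 2 and 3, with a difference of 0.68 ± 0.32 and a limma adjusted p of 0.276 without relapsed 1. Cd36, the fatty acid translocase of fat cells, macrophages and capillary endothelium, stood at 10.10, 9.18 and 7.60 in relapsed tumours, against 6.76, 6.50 and 7.43 in controls. Relapsed 1 and relapsed 2 stood well above the controls and relapsed 3 just above them. The difference of 2.06 ± 0.67, or 4.18-fold, had an adjusted p of 0.123 in limma, and was 1.49 ± 0.57 without relapsed 1 (adjusted p = 0.208). Fabp5, the epidermal fatty acid-binding protein, stood at 10.06, 10.08 and 9.86 in relapsed tumours and at 9.19, 10.23 and 8.89 in controls, and its second probe set had the same order of arrays. Its groups overlapped through control 2 alone, and the gene passed without that array (adjusted p = 0.0450 in limma, 0.381 with all arrays).

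The caveolin genes rose in all 3 relapsed tumours. Caveolins form the membrane pits that are dense in fat cells, and are abundant in endothelium and fibroblasts as well. Cav1 stood at 12.27, 11.64 and 11.83 in relapsed 1, 2 and 3, against 10.95, 11.05 and 10.84 in control 1, 2 and 4. Cav2 stood at 10.62, 10.23 and 10.58 in relapsed tumours, against 9.75, 9.27 and 9.58 in controls. The groups did not overlap for either gene, and relapsed 1 exceeded the next array by 0.44 in Cav1 and 0.037 in Cav2. Cav1 rose by 0.97 ± 0.17 and Cav2 by 0.94 ± 0.17 (1.96-fold and 1.92-fold), with adjusted p of 0.0326 and 0.0316 in limma. Without relapsed 1, Cav1 rose by 0.79 ± 0.098 (adjusted p = 0.0375), and Cav2 differed by 0.87 ± 0.19 (adjusted p = 0.0809). Both calls were lost when any other single array was left out. Fibroblast markers, of which 8 of 13 measured rose and none fell, or 4 and none without relapsed 1, were higher in the same tumours. Their mean level relative to the 6-array mean was 1.17, 0.44 and 0.45 in relapsed 1, 2 and 3, against -0.41, -0.66 and -0.97 in control 1, 2 and 4. That of endothelial markers was -0.092, -0.11 and -0.34 in relapsed tumours, against 0.060, 0.34 and 0.14 in controls. The part of either in the caveolin result was not tested.

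Among the genes that build triglyceride, some were high on relapsed 1 and others low on relapsed 2 and 3. Gpd1, which makes glycerol 3-phosphate for the backbone, stood at 9.38, 8.63 and 7.96 in relapsed 1, 2 and 3, against 10.44, 10.23 and 10.62 in control 1, 2 and 4. All 3 relapsed tumours lay below all 3 controls, as they did for 2 adipocyte genes and 17.8% of all genes, and relapsed 1 lay nearest to the controls. Gpd1 fell by 1.77 ± 0.36 (adjusted p = 0.0440 in limma), and by 2.14 ± 0.24, or 4.39-fold, without relapsed 1 (adjusted p = 0.0344). The call was lost when any other single array was left out. Gpd1 is also an enzyme of oligodendrocytes. Of 14 markers of glioma and neural progenitors 11 fell and none rose, against 5.47% and 3.69% of all genes. Without relapsed 1, 7 fell and none rose, against 2.98% and 1.91% of all genes. The mean level of these markers was -0.96, -0.87 and -0.96 in relapsed tumours, against 0.67, 1.21 and 0.92 in controls. Its part in the change of Gpd1 was not tested.

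Dgat2 and Dgat1 encode the enzymes that add the last fatty acid to triglyceride. Dgat2 stood at 9.78, 7.64 and 7.63 in relapsed 1, 2 and 3, against 9.42, 9.72 and 9.55 in control 1, 2 and 4. Relapsed 2 and 3 lay far below the controls while relapsed 1 lay just above them. With all arrays the difference was -1.22 ± 0.61 with an adjusted p of 0.284 in limma, and its 95% interval ran from -2.75 to 0.32. Without relapsed 1, Dgat2 fell by 1.93 ± 0.10, a 3.81-fold change (adjusted p = 0.0234). Dgat1 stood at 9.38, 9.09 and 9.24 in relapsed tumours, against 9.57, 9.60 and 9.63 in controls. Its groups did not overlap, with a difference of -0.36 ± 0.087 (adjusted p = 0.0640), and it fell by 0.43 ± 0.068 without relapsed 1 (adjusted p = 0.0495). It also passed with median centring. Relapsed 2 and 3 lay below all controls for 6 of the 33 adipocyte genes, against 23.5% of all genes.

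The other genes of triglyceride building did not pass with or without relapsed 1. Agpat2, which adds the second fatty acid, stood at 10.46, 9.02 and 9.17 in relapsed 1, 2 and 3, against 9.16, 9.20 and 9.02 in control 1, 2 and 4. Pck1, which feeds glycerol 3-phosphate formation from pyruvate, stood at 7.94, 6.29 and 6.18 in relapsed tumours, against 6.17, 6.24 and 6.38 in controls. Thrsp, a lipogenic nuclear protein, stood at 8.28, 6.03 and 5.72 in relapsed tumours, against 6.02, 6.37 and 6.30 in controls. For these 3 genes relapsed 1 was 2.39-fold, 2.95-fold and 3.76-fold above the highest of the others, and the other relapsed tumours overlapped with the controls or, for relapsed 3 in Thrsp, lay below them. Gpam, which adds the first fatty acid, stood at 9.34, 8.67 and 8.90 in relapsed tumours, against 8.71, 9.89 and 9.38 in controls, with overlapping groups and control 2 the highest array.

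Of the genes that release stored lipid, relapsed 2 and 3 lay below all controls for the first 2 lipases of the chain. Such an order was no more frequent among adipocyte genes than elsewhere, at 6 of the 33 against 23.5% of all genes. Pnpla2, adipose triglyceride lipase, stood at 9.97, 8.88 and 8.97 in relapsed 1, 2 and 3, against 9.51, 10.05 and 9.55 in control 1, 2 and 4. Lipe, hormone-sensitive lipase, stood at 9.42, 7.69 and 7.78 in relapsed tumours, against 8.03, 8.15 and 8.26 in controls. Relapsed 1 reached the range of the controls in Pnpla2 and was 2.24-fold above every other array in Lipe. Neither gene passed in limma. The difference was -0.43 ± 0.33 for Pnpla2 and 0.15 ± 0.48 for Lipe with all arrays (adjusted p of 0.481 and 0.874), and -0.78 ± 0.19 and -0.41 ± 0.089 without relapsed 1 (adjusted p of 0.0980 and 0.0800). Mgll, the lipase of the last step, which is also active in brain, stood at 8.996, 8.12 and 8.02 in relapsed tumours, against 7.69, 8.30 and 7.76 in controls. Aqp7, the channel through which glycerol leaves fat cells, stood at 6.91, 5.25 and 5.37 in relapsed tumours, against 5.32, 5.28 and 5.52 in controls, so that it exceeded the level of dim probe sets on relapsed 1 alone. Pnpla3, a lipid droplet hydrolase, stood at 7.26 on relapsed 1 and between 6.57 and 6.64 on the other 5 arrays.

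Among the remaining genes, Car3 encodes carbonic anhydrase 3, which is abundant in fat and in slow muscle. It stood at 12.46, 8.10 and 9.05 in relapsed 1, 2 and 3, against 8.04, 9.93 and 9.11 in control 1, 2 and 4. Relapsed 1 was 5.75-fold above the next array, which was control 2. Slc2a4, the insulin-regulated glucose transporter of fat and muscle, stood at 6.98, 6.58 and 6.42 in relapsed tumours, against 6.72, 7.16 and 6.64 in controls, with control 2 the highest and relapsed 1 next. Control 2 was also the array on which 14 of 20 markers of skeletal muscle stood more than 1 log2 unit above every other array. There 0.266% of all genes did. The muscle level of control 2 was 1.57, against -0.58 to 0.039 on the others. Sncg, gamma-synuclein, which is made by fat cells and peripheral neurons, stood at 9.48, 6.90 and 7.60 in relapsed tumours, against 7.31, 7.63 and 7.42 in controls. Apoc1, an apolipoprotein of liver and macrophages, stood at 8.57, 5.78 and 6.95 in relapsed tumours, against 5.67, 6.48 and 5.73 in controls. On relapsed 1 these were 3.61-fold and 3.09-fold above the highest of the others. Ucp1, the uncoupling protein of brown fat, was dim on every array, at 4.84, 4.98 and 4.85 in relapsed tumours and 4.84, 4.86 and 4.84 in controls.

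**Figure D3:**
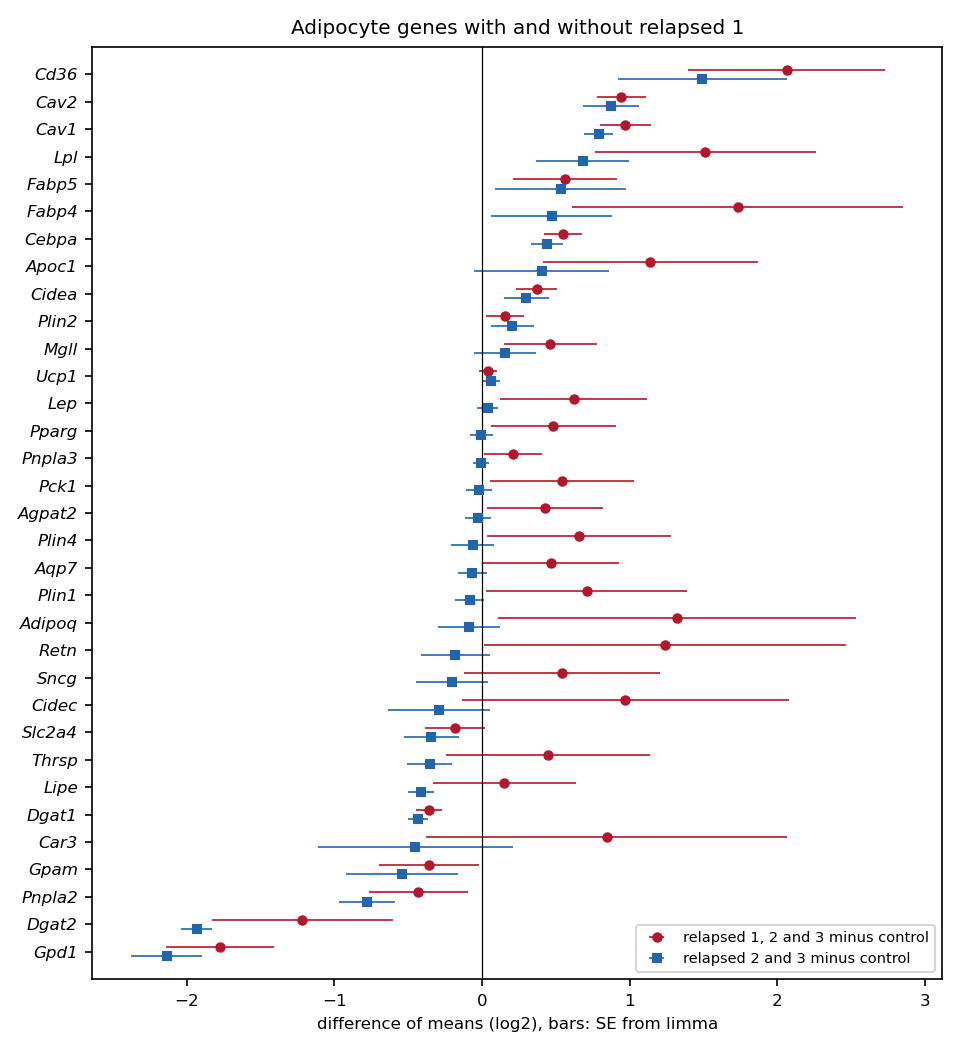
Circles give the difference of the 3 relapsed and 3 control tumours and squares that of relapsed 2 and 3 and the 3 control tumours, in log2 units with SE, for the 33 adipocyte genes ordered by the second difference. The circles of Adipoq, Retn and Cidec lie to the right with wide errors and their squares near 0, whereas Gpd1, Dgat2 and the caveolin genes keep their side of 0 in both.

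Further adipocyte genes that are not among the 33 also stood out mainly on relapsed 1. Their list was chosen with earlier results of these data known and was read on the same arrays, so it is no independent check. Of 34 measured, 12 stood more than 1 log2 unit above every other array on relapsed 1, against 0.978% of all genes. On relapsed 3, 1 did, against 0.557% of all genes, and none did on relapsed 2 or the 3 controls. The gene on relapsed 3, noticed after its values were seen, was G0s2, an inhibitor of adipose triglyceride lipase, at 9.49. Between the groups, 1 rose and 2 fell, against 3.69% and 5.47% of all genes, with a median difference of 0.31, or -0.0042 without relapsed 1. The highest excess was that of Cyp2e1, a cytochrome P450 of liver and fat, at 10.02, 5.15 and 4.77 in relapsed 1, 2 and 3, against 5.22, 5.28 and 5.22 in control 1, 2 and 4. Hp, which encodes haptoglobin, stood at 10.50, 7.07 and 7.47 in relapsed tumours, against 6.51, 6.79 and 7.27 in controls. Ces1d, a carboxylesterase of fat and liver, stood at 7.72, 4.68 and 5.06 in relapsed tumours, against 4.52, 4.68 and 4.68 in controls. The genes that passed between the groups were others. Angptl4, an inhibitor of lipoprotein lipase that also answers to hypoxia, rose by 1.21 ± 0.25, and Nnat and Timp4, which are expressed in brain as well as in fat, fell by 2.17 ± 0.30 and 2.65 ± 0.37. Their adjusted p were 0.0467, 0.0196 and 0.0195 in limma. Timp4 did not pass without relapsed 1 (adjusted p = 0.0553).

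Other lists of fat biology had fewer genes so far above the other arrays on relapsed 1. Of 18 measured genes of fatty acid synthesis none stood more than 1 log2 unit above the other arrays there, against 0.978% of all genes. Between the groups none rose and 2 fell in limma, where 3.69% of all genes rose and 5.47% fell. The median difference of this list was -0.47, or -0.55 without relapsed 1. The genes that fell were Fads1, a fatty acid desaturase, by 0.78 ± 0.15, and Agpat3, an acyltransferase, by 0.62 ± 0.11, with adjusted p of 0.0395 and 0.0353 in limma. Without relapsed 1 Agpat3 did not pass (adjusted p = 0.0694) and the citrate carrier Slc25a1 fell (0.0492). Scd1, the stearoyl-CoA desaturase, had the highest excess of that list on relapsed 1, at 0.59 over control 2. Of 16 genes of fatty acid oxidation none stood above 1 log2 unit and 1 fell, the carnitine carrier Slc25a20, by 0.43 ± 0.062 (adjusted p = 0.0200). Of 17 genes of brown and beige fat none stood out on relapsed 1 and 1 rose, the deiodinase Dio2, by 1.25 ± 0.26 (adjusted p = 0.0436, or 0.0957 without relapsed 1). Of 19 regulators of adipogenesis 1 stood out on relapsed 1, Gata3, and none rose or fell in limma, where 4 passed at an unadjusted p under 0.05 (26.6% of all genes did). Without relapsed 1 the transcription factor gene Klf5 rose (adjusted p = 0.0441). Of 14 adipose progenitor markers 2 stood out, Ccn5 and Dpp4, and 1 rose, Anxa3, by 1.11 ± 0.21 (adjusted p = 0.0364, or 0.0877 without relapsed 1). An unadjusted p under 0.05 in limma was found for 10 of 18 synthesis genes, all lower in relapsed tumours, and 6 of 14 progenitor markers. So it was for 5 of 16 oxidation genes and 3 of 17 brown and beige fat genes. The share over all genes, in either direction, was 26.6%.

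**Figure D4:**
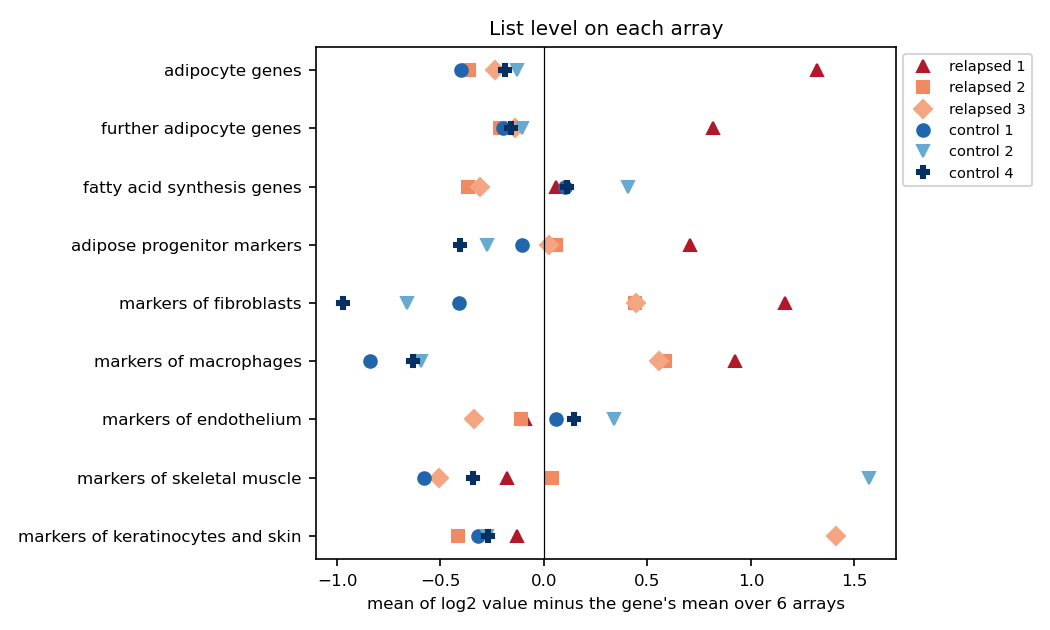
Each symbol is the mean level of a list on 1 array, each gene being set against its own 6-array mean on the log2 scale. Relapsed 1 stands alone in the adipocyte genes at 1.32 and in further adipocyte genes at 0.81, control 2 in skeletal muscle at 1.57 and relapsed 3 in keratinocytes at 1.41.

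Markers of other cell types did not all move with the adipocyte genes. The mean level of the adipocyte genes was 1.32, -0.36 and -0.23 in relapsed 1, 2 and 3, against -0.40, -0.13 and -0.19 in control 1, 2 and 4. Of 18 macrophage markers 15 rose and none fell, against 3.69% and 5.47% of all genes. Without relapsed 1, 9 rose and none fell, against 1.91% and 2.98% of all genes. The macrophage level was 0.92, 0.58 and 0.56 in relapsed tumours, against -0.84, -0.59 and -0.63 in controls. None of these markers stood more than 1 log2 unit above the other arrays on relapsed 1, where 0.978% of all genes did. Fibroblast markers did so for 3 of 13 genes, Lum, Mfap5 and Dpt. None of 17 keratinocyte markers and none of 20 muscle markers stood out on relapsed 1. On relapsed 3, 12 of the keratinocyte markers did, against 0.557% of all genes. The keratinocyte level was -0.13, -0.42 and 1.41 in relapsed tumours, against -0.32, -0.27 and -0.27 in controls. Markers of mesothelium and of blood and liver had their highest mean level on relapsed 1, each through few genes. The mesothelial level was 0.32, -0.011 and 0.17 in relapsed tumours, against -0.15, -0.22 and -0.12 in controls. Of its 8 markers Krt19 alone stood out on relapsed 1, and 2 were dim on all 6 arrays. The only marker to stand out on relapsed 3 was Msln, which encodes mesothelin. It was at 6.54, 7.52 and 8.78 in relapsed tumours, against 6.38, 6.08 and 6.26 in controls. The blood and liver level was 0.31, -0.0087 and -0.11 in relapsed tumours, against -0.028, -0.095 and -0.069 in controls. Of its 6 markers 1 stood out on relapsed 1, the erythroid enzyme gene Alas2, and 2 were dim on all 6 arrays. The other markers of these lists are not given singly here. None of 8 sebaceous markers stood out on relapsed 1. What part these cells had in the values of the shared genes was not tested.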

How the data were processed

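Affymetrix arrays of mouse glioma were analysed, 3 relapsed and 3 control, grouped and numbered by the labels. The authors deposited log2 intensities of probe sets, already normalized between arrays. Scale and normalization were judged from their range (1.93 to 14.24) and like array medians (6.58 to 6.68). Per the submitters' processing notes the affy package was used; how the background was corrected and probe sets were summarized is not given in the sources used here. No scanner values were used. Such normalization hides a change shared by most transcripts.

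Of 35556 probe sets, 21789 had 1 gene symbol in the platform annotation, 1621 had several and 12146 were not listed. Genes outside the list of 35 were also matched through the RefSeq gene table of GRCm38.p6. Of several probe sets for a gene, the brightest on average was kept. The fit used limma 3.58.1 in R 4.3.3 (lmFit and eBayes, two-sided) on values as deposited, with no filter, 4 residual degrees of freedom, a prior of 1.526, and Benjamini-Hochberg adjustment over 19938 genes. Genes passed at an adjusted p under 0.05. The fit was tested on simulated data. The number of arrays limits the precision. No scan date or slide is given, so batches were not tested.

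The adipocyte genes, the other lists and the tests were chosen with earlier results of these data known. Candidates for naming were all measured adipocyte genes and, of each other list, up to 4 called genes by size of change. Added were the 3 genes of each list with the largest excess of relapsed 1 over the other arrays. The 15 other genes with the largest such excess, and defining markers, were added too. Not every candidate is named in the text. G0s2, Slc25a1, Klf5 and Msln fall outside this rule and were named with their values known. Alternatives were quantile normalization, median centring, leaving out the dimmer 50% of genes, the mean of a gene's probe sets, a robust trended prior, the replicate number as a block, and each array left out.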

Additional observations from a re-analysis of the deposited data

How the results depend on the processing

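The calls rested on few arrays. In limma 1826 genes passed with all arrays, and between 264 and 975 with any single array left out, while the count of adipocyte genes went between 0 and 4 in those fits, against 3. The replicate number as a block pairs only numbers 1 and 2 of the groups. Relapsed 3 and control 4 then add nothing to the difference, and fewer residual degrees of freedom remain than the 4 of the main fit. The block left 0 calls over all genes and 0 among adipocyte genes. At an unadjusted p under 0.05 in limma there were 2199 (11.0%) and 3 of 33. Such a loss cannot show whether the calls of the main fit hold. Nothing in the labels says that the replicate numbers pair the tumours, and the deviations of same-numbered tumours from their group means correlated at -0.34 and -0.25. With median centring 696 genes rose and 1687 fell, against 735 and 1091 as deposited. The median difference of the adipocyte genes ran from -0.028, without relapsed 1, to 0.77 over the fits that leave out an array. Without relapsed 1 the sign turned for 14 genes that passed in neither fit. The range over the fits that leave out an array, lowest without relapsed 1, was -0.089 to 2.18 for Adipoq, -0.028 to 0.69 for Agpat2, -0.066 to 0.77 for Aqp7, -0.45 to 1.73 for Car3, -0.29 to 1.75 for Cidec, -0.41 to 0.46 for Lipe, -0.022 to 0.85 for Pck1, -0.084 to 1.14 for Plin1, -0.063 to 1.03 for Plin4, -0.0096 to 0.34 for Pnpla3, -0.0060 to 0.76 for Pparg, -0.18 to 2.09 for Retn, -0.21 to 1.09 for Sncg and -0.35 to 0.92 for Thrsp. Plin2 was at -0.024 with the block, which compares relapsed 1 and 2 with control 1 and 2. Ucp1, dim throughout, was at -0.035 with quantile normalization and -0.035 with median centring, and ran from -0.0061 without relapsed 2 to 0.063 without relapsed 1. The count of adipocyte genes for which relapsed 1 stood more than 1 log2 unit above each other array was 17. It was 7 with the dimmer 50% of genes left out, which keeps only 19 adipocyte genes. At an excess of 0.5 log2 units the count was 20, and at 2 log2 units it was 7. The cause of the calls lost when an array was left out was not tested. Cidea and Ucp1 lay below the level of dim probe sets on all 6 arrays, so a change of theirs may not have been measurable.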

Other observations

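Among the genes outside the adipocyte list, the 15 with the largest excess of relapsed 1 over the highest of the other 5 arrays included liver and fat enzymes and plasma proteins. Cyp2e1, Hp and Ces1d, described above, were 26.8-fold, 8.13-fold and 6.31-fold above every other array. Orm1 and Mest, like these 3, belong to the list of further adipocyte genes, so their values repeat part of that result. Orm1, which encodes the plasma protein orosomucoid, stood at 8.26, 5.33 and 5.65 in relapsed 1, 2 and 3, against 5.40, 5.24 and 5.47 in control 1, 2 and 4. Cdo1, the cysteine dioxygenase of liver and fat, stood at 9.28, 6.39 and 6.66 in relapsed tumours, against 6.28, 6.68 and 6.68 in controls. Mest, an imprinted gene linked to fat mass expansion in mice, stood at 12.78, 9.46 and 9.53 in relapsed tumours, against 9.50, 10.60 and 10.01 in controls. For these 3 genes no array other than relapsed 1 exceeded 5.65, 6.68 and 10.60.

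Others of the 15 have known roles outside fat, and whether fat cells also made them here was not tested. Krt19, a keratin of simple epithelia and mesothelium, was 7.43-fold above every other array on relapsed 1, at 8.83 against 5.66 to 5.94 elsewhere. Tmprss2, an epithelial protease, was 5.19-fold above, Penk, the enkephalin precursor, 5.37-fold, Xcl1, a chemokine of natural killer and T cells, 5.16-fold, and Kera, a small proteoglycan of connective tissue, 4.39-fold. Vgll3, a transcription cofactor, was 5.83-fold above, Ptchd4 5.77-fold, Gdf3, a ligand of the TGF-beta family, 4.74-fold and Akr1c18, a steroid dehydrogenase, 4.57-fold. These values come from 1 array and have no replicate check.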
